A study of Mus musculus with 16 samples.

Results

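Quadriceps muscle of HDAC3 knockout mice was compared with that of wild-type mice at rest, gene by gene across the transcriptome. The members were the 10834 genes, of 24354 in the table, with a mean of 1 FPKM or more in either genotype. FPKM scales the fragments mapped to a gene by its length and by the size of the library. The mice were male, 4 months old and of the C57B/6 background, fed normal chow on a normal light and dark schedule, and labelled wild type or HDAC3-KO. Each genotype was represented by 3 resting RNA-seq libraries. The labels did not say how or in which cells Hdac3 was deleted, apart from naming HDAC3-depleted skeletal muscles, nor whether each library came from its own mouse, so p-values measure the spread between these libraries, which may be technical. A second set of 3 libraries per genotype, taken 2 h after the last of 3 treadmill bouts of 1 h at 10 m/min, is used below only to see whether the same genes differed in other libraries.

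HDAC3 is a class I histone deacetylase whose activity depends on corepressors such as NCoR1, with which it forms a complex that also holds TBL1X, TBL1XR1 and GPS2. Transcription factors such as the Rev-erb proteins and unliganded nuclear receptors bring this complex to enhancers and promoters, where it removes acetyl groups from histones and lowers transcription. In skeletal muscle HDAC3 is known for tying fuel choice, in particular the use of glucose, lipid and amino acids, to the circadian clock.

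Hdac3 itself checked the labels. It read 33.3, 31 and 23.7 FPKM in wild-type libraries 1 to 3 and 5.51, 6.29 and 8.16 FPKM in knockout libraries 1 to 3, a log2 difference of -1.99 ± 0.17 with an adjusted p of 0.00627. Differences are given below in the same way, knockout minus wild type on the log2(FPKM + 1) scale ± standard error, and library values run from library 1 to 3. Every knockout library lay below every wild-type library, and transcript remained in all 3 knockout libraries. The tissue label was checked in the same way: summed over 8 skeletal muscle fibre markers the libraries held 56880 to 65970 FPKM in wild type and 55930 to 68640 FPKM in knockout, while 6 cardiac markers, Myh6, Nppa, Nppb, Tnni3, Mybpc3 and Myl7, were each under 1 FPKM in every library.

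A single library stood apart in its cell content. The 7 neutrophil markers (S100a8, S100a9, Csf3r, Retnlg, Mmp8, Ngp and Camp) summed to 544.8 FPKM in wild-type library 2, against 5.66 and 10.2 FPKM in wild-type libraries 1 and 3 and 3.49 to 7.55 FPKM in the knockout libraries. Retnlg, a defining neutrophil transcript, was listed at 0 in the other 5 libraries. The part that these cells played in the genotype comparison was not tested, and counts are given below with and without that library. In whole muscle, fewer cells of a type and less RNA per cell cannot be told apart. FPKM summed to between 454359 and 495099 per library, 10281 to 10544 genes reached 1 FPKM, and read depth is unknown; libraries correlated at 0.955 to 0.968 within a genotype and at 0.948 to 0.954 between genotypes (Pearson, log2 scale, across genes).

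**Figure D1:**
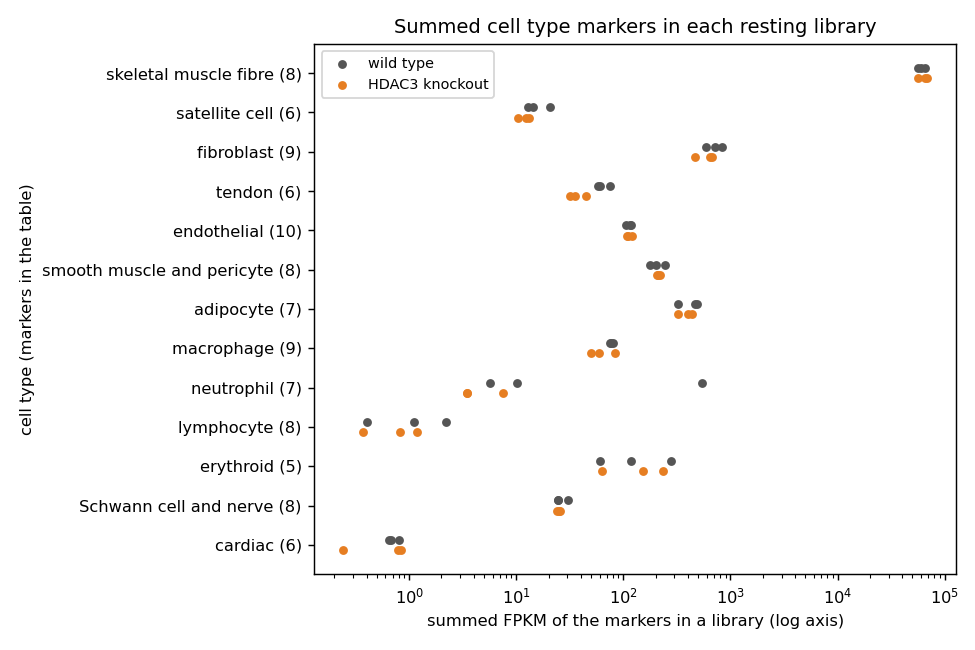
Summed FPKM of the markers of 13 cell types in each resting library (log axis); each point is a library and the number of markers in the table is in brackets. Neutrophil markers stand at 544.8 FPKM in 1 wild-type library. Tendon markers are at 31.5 to 45.1 FPKM in knockout and 58.0 to 75.2 FPKM in wild type, a sum made up mostly of Thbs4 and Fmod.

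A small share of the transcriptome passed the test for a difference between the genotypes, with more genes called higher in the knockout than lower. With 3 libraries per genotype, a gene that did not pass may still differ, so this share is not the extent of change. With limma on log2(FPKM + 1) and an adjusted p at or under 0.05, 240 genes (2.22% of the 10834) rose and 144 (1.33%) fell, 384 in all (3.54%); these are the called genes, and only they are said to rise or fall here. All 384 had knockout libraries that did not overlap the wild-type libraries, which was the case for 2844 (26.3%) of all genes tested, and 2148 genes had an unadjusted p under 0.05. The authors' deposited table called 998 (10.8%) of the 9204 genes tested there at a q of 0.05 or less; 342 of the 384 were among them, all in the same direction. The median log2 difference over all genes tested was 5.86e-05. FPKM is scaled to the size of the library, so this median cannot show whether the amount of RNA shifted as a whole.

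The counts fell whenever a library was left out, furthest for wild-type library 2. Without it limma called 19 genes, 18 of them among the 384; without knockout library 3 it called 38, without knockout library 1 45, without knockout library 2 116, without wild-type library 3 153 and without wild-type library 1 208. None of the 384 moved by over 1.5 times on the log2 scale in any of the 6 fits, but the call itself favours genes of small spread. None changed sign either. That outcome was fixed in advance, since the groups of all 384 did not overlap, so neither result measures robustness. In every one of the 6 fits 18 genes were called. Of these, 13 were higher in the knockout (Srrm4os, Mib1, Mthfd2, Cdkn1a, Rnaset2a, Rnf181, Gstm2, Tlcd2, Hat1, Atf5, Pak1, Ccdc136 and Lgmn) and 5 lower (Snora34, Setd8, Hdac3, Mir703 and Mfap3l).

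Changes in abundance were modest for most called genes. Genes that rose had a median ratio of knockout to wild-type mean of 1.76 (interquartile range 1.58 to 2.29), with 83 of 240 over 2-fold and 19 over 4-fold. For genes that fell, the median ratio of wild-type to knockout mean was 2.04 (1.64 to 2.84), with 74 of 144 over 2-fold and 18 over 4-fold. The share called climbed with expression, from 1.21% of genes with a mean under 2 FPKM to 7.23% of those at 100 FPKM or more, where 36 rose and 6 fell. As a share of each library's FPKM, the 240 made up 2.25 to 2.46% in wild type and 3.82 to 4.16% in knockout, and the 144 made up 1.43 to 1.55% and 0.564 to 0.652%; since these genes were picked for differing, the shares only describe how much of the RNA they represent.

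**Figure D2:**
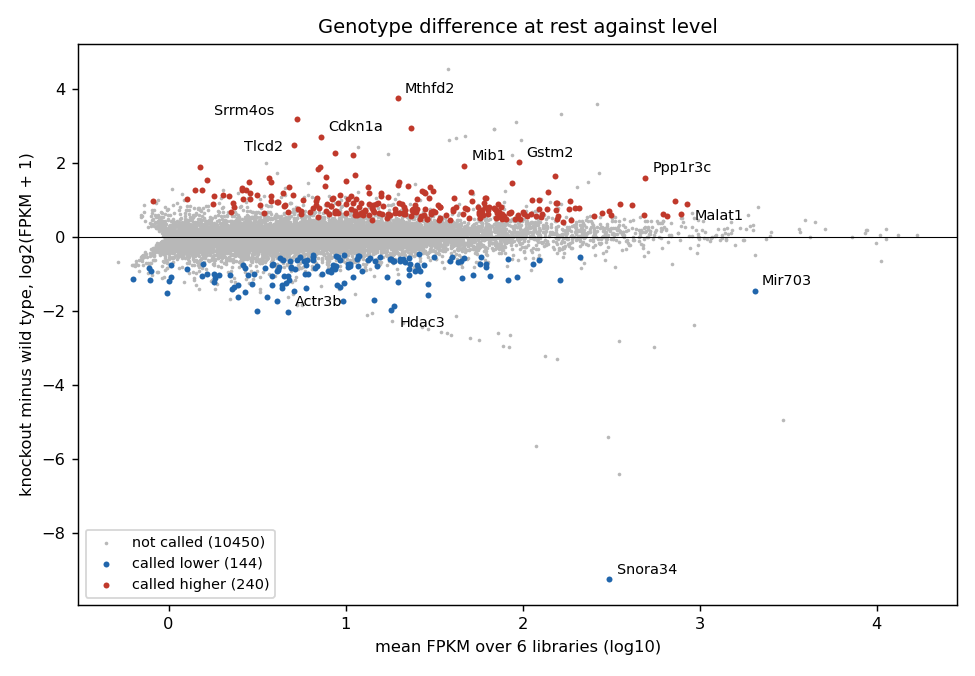
Difference between the genotypes, knockout minus wild type on the log2(FPKM + 1) scale, against the mean FPKM over the 6 resting libraries (log10) for 10834 genes. The 240 genes called higher (red) and 144 called lower (blue) spread over the whole range of levels, and the bulk of genes lies on 0. Snora34 is listed at 0 in the knockout, so its height depends on the value of 1 added before the log.

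Among the genes of smallest p that rose were 2 ubiquitin ligases and a lysosomal protease. Mib1, a ubiquitin ligase that drives endocytosis of Notch ligands, read 16.9, 20.6 and 19.5 FPKM in wild type and 78.7, 74.1 and 69.8 FPKM in knockout (log2 difference 1.91 ± 0.11, adjusted p = 0.000899). Rnf181, a RING finger ubiquitin ligase, read 17.8, 16.2 and 16 FPKM against 42.2, 39.7 and 36.3 FPKM (1.19 ± 0.10, adjusted p = 0.00627). Lgmn, the lysosomal protease legumain, read 16.9, 13.4 and 16.9 FPKM against 40.1, 35.4 and 38.6 FPKM (1.23 ± 0.12, adjusted p = 0.00693). For each of these genes the lowest knockout library was above the highest wild-type library by more than the range within either genotype.

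The cytoskeleton and its signalling were represented by Pak1 and Tuba8. Pak1, a kinase activated by the small GTPases Rac and Cdc42, stood at 12.6, 8.46 and 9.56 FPKM in wild type and 30.5, 29.5 and 29.2 FPKM in knockout (1.47 ± 0.14, adjusted p = 0.00689). Tuba8, an alpha-tubulin abundant in striated muscle and brain, stood at 105, 105 and 112 FPKM and 193, 208 and 206 FPKM (0.91 ± 0.09, adjusted p = 0.00689), and the spread within either genotype was small beside the gap. Hat1, the acetyltransferase of newly made histone H4, rose from 10.6, 12.1 and 10.1 FPKM to 23.8, 23.5 and 24.4 FPKM (1.07 ± 0.10, adjusted p = 0.00689). Ccdc136, a coiled-coil protein, rose from 2.17, 3.06 and 2.23 FPKM to 12, 8.88 and 13.6 FPKM (1.83 ± 0.18, adjusted p = 0.00693). Tlcd2, a membrane protein linked to phospholipid composition, rose from 1.05, 0.412 and 1.18 FPKM to 7.56, 12.1 and 8.4 FPKM (2.46 ± 0.23, adjusted p = 0.00689). Of the 8 genes in these paragraphs, 7 passed in all 6 leave-one-out fits; Tuba8 had an adjusted p of 0.0665 without wild-type library 2. After running, all 8 were again higher in the knockout libraries, and 6 passed the test there.

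Genes that fell included regulators of calcium, membranes and chromatin. Setd8, the enzyme that places a single methyl group on lysine 20 of histone H4, read 44.1, 42.1 and 39.7 FPKM in wild type and 18.7, 15.3 and 16 FPKM in knockout (-1.29 ± 0.11, adjusted p = 0.00627). Cd55, which shields cells from complement, read 27.3, 33.6 and 28.7 FPKM and 9.67, 5.78 and 7.03 FPKM (-1.88 ± 0.18, adjusted p = 0.00689). Mfap3l, a membrane protein, read 3.95, 3.83 and 3.66 FPKM and 0.841, 0.791 and 0.976 FPKM (-1.37 ± 0.12, adjusted p = 0.00689). In each of them the highest knockout library was below the lowest wild-type library.

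Among calcium-binding proteins and channels, S100a1, a muscle protein that binds the ryanodine receptor, fell from 112, 145 and 123 FPKM to 58.2, 54.3 and 64.7 FPKM (-1.08 ± 0.12). Calm3, which encodes calmodulin, fell from 94.6, 119 and 131 FPKM to 45.8, 54.3 and 49.3 FPKM (-1.18 ± 0.14). Cacna2d4, an auxiliary subunit of voltage-gated calcium channels, fell from 2.9, 2.67 and 3.03 FPKM to 0.688, 0.854 and 0.843 FPKM (-1.11 ± 0.13). The adjusted p was 0.0129 for each. Hacd1, a dehydratase of very-long-chain fatty acid synthesis whose loss causes a myopathy, fell from 67, 75.5 and 69.1 FPKM to 39.1, 30.5 and 31.8 FPKM (-1.05 ± 0.12, adjusted p = 0.0129). Gatsl2, a relative of the arginine sensor Castor1, stood at 5.64, 5.19 and 5.7 FPKM and 1.86, 2.23 and 2.29 FPKM (-1.06 ± 0.12). Eif4e3, a member of the cap-binding family, stood at 15.3, 17.3 and 13.1 FPKM and 6.28, 6.73 and 6.97 FPKM (-1.08 ± 0.12). Actr3b, an isoform of the actin-nucleating protein Arp3, stood at 9.13, 8.65 and 6.66 FPKM and 0.652, 1.45 and 1.74 FPKM (-2.03 ± 0.22). All of them fell. Setd8 passed in every leave-one-out fit. Of the other 9 genes described as falling here, Mfap3l did so too, and in the remaining 8 the highest adjusted p, 0.0539 to 0.0855, came without wild-type library 2. All 9 were lower again in knockout after running, and 7 passed there.

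**Figure D3:**
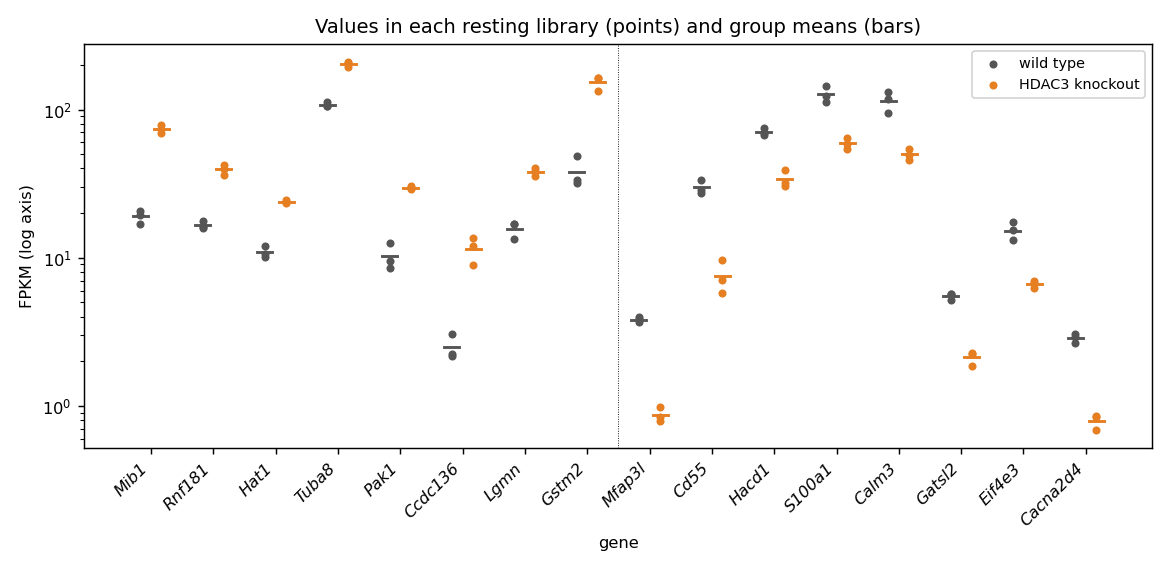
FPKM in each resting library (points, log axis) with group means (bars) for 8 genes that rose and 8 that fell, wild type in grey and knockout in orange. In every gene the 3 knockout points lie wholly above or wholly below the 3 wild-type points.

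To show sequence beside these values, the 250 bases before the transcription start of 4 leading genes are printed from RefSeq (mouse build GRCm38.p6, 5′ to 3′ on the strand of the gene). They were picked by smallest p among the leading genes whose window held a searched motif. Capitals mark the CCAAT box, CCAAT or ATTGG on the other strand, in the first 3, and in Mfap3l the GC box, GGGCGG or CCGCCC, and the core of the antioxidant response element, TGACNNNGC. The windows are Mthfd2, chr6:83317605-83317854, minus strand, Rnf181, chr6:72362433-72362682, minus strand, Gstm2, chr3:107986421-107986670, minus strand, and Mfap3l, chr8:60632575-60632824, plus strand.
Mthfd2: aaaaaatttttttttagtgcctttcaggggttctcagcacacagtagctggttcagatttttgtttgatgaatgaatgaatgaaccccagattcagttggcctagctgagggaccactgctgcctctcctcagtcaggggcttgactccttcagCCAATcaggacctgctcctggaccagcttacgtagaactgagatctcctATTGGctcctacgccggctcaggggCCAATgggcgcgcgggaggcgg
Rnf181: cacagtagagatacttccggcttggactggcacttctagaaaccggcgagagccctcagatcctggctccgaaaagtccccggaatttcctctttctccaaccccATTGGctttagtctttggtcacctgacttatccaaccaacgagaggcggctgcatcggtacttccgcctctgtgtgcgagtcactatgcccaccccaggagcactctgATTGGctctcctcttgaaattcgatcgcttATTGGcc
Gstm2: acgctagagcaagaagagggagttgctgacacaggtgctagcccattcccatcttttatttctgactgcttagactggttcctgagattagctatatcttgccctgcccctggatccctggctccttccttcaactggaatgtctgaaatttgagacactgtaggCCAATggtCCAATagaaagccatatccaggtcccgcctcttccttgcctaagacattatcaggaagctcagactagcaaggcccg
Mfap3l: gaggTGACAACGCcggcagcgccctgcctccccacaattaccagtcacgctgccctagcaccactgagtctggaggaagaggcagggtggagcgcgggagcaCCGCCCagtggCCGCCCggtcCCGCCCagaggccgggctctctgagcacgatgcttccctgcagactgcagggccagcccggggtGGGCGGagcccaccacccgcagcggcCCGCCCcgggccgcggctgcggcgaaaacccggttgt
The CCAAT boxes began 96, 47 and 22 bases before the start of Mthfd2, 145, 37 and 7 bases before that of Rnf181, and 85 and 77 bases before that of Gstm2. Of the 8265 genes tested with a window in the table (250 bases before and 50 after the start), 38.6% held a CCAAT box on either strand, against 41.3% of 189 genes that rose and 29.4% of 102 that fell. A GC box stood in 65.0% of all windows, 55.6% of those that rose and 70.6% of those that fell, and the antioxidant response element core in 15.4%, 16.9% and 13.7%. A match is a description of these letters and was given no test.

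The other 10 motifs searched, on both strands, are given as shares in the same order: all windows, genes that rose, genes that fell. The core bound by C/EBP and ATF factors together, TGATGNAA, was in 2.17% of all windows, 3.70% of those that rose and 1.96% of those that fell, and the cAMP response element TGACGTCA in 3.46%, 1.59% and 0%. The AP-1 site TGANTCA was in 4.67%, 7.41% and 5.88%, the MEF2 site TATTTNTAG in 1.19%, 3.17% and 1.96%, and the clock-type E-box CACGTG in 10.7%, 11.1% and 9.80%. The half-site of ROR and Rev-erb, TAGGTCA, was in 1.86%, 2.65% and 1.96%, the D-box TTATGNAA in 1.81%, 1.06% and 0%, and the estrogen-related receptor site TCAAGGTCA in 0.23%, 1.06% and 0%. The TATA box TATAAA was in 7.32%, 3.70% and 6.86%, and the sterol response element TCACNCCAC in 1.05%, 0.529% and 0.98%.

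Turning to chromatin, the complex that HDAC3 works in was measured in all 7 of its listed partners. Tbl1xr1 and Tbl1x, the beta-propeller subunits, rose (28.6% of the 7, against 3.54% called among all genes tested). Tbl1xr1 went from 11, 10.4 and 10.2 FPKM to 16, 21 and 17.4 FPKM (0.72 ± 0.12, adjusted p = 0.0264). Tbl1x went from 6.09, 6.86 and 5.66 FPKM to 9.45, 10.1 and 10.2 FPKM (0.60 ± 0.11, adjusted p = 0.0329). Ncor1 read 22.7, 23.5 and 21.3 FPKM and 26.2, 22.9 and 26.7 FPKM, and the groups overlapped. None of 16 other deacetylases and sirtuins passed the test, and their median log2 difference was 0.035. Of 49 histone lysine methyltransferases and demethylases 2 fell (4.08%), near the share of all genes tested. Beside Setd8 (above) this was Smyd2, a methyltransferase that also acts on sarcomeric proteins, at 131, 158 and 139.8 FPKM and 85.2, 80.6 and 89.5 FPKM (-0.74 ± 0.10).

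The share of transcription factors called differed between the lists. It was 13.5% of bZIP factors and 6.67% of homeobox genes and relatives, against 3.54% of all genes tested. Among nuclear receptors it was 3.23%, and among the zinc finger genes 0.639%. Esrrg, the estrogen-related receptor gamma that drives oxidative metabolism, was the only 1 of 31 nuclear receptors called, rising from 6.7, 6.85 and 5.87 FPKM to 13.9, 12 and 16.7 FPKM (1.01 ± 0.14, adjusted p = 0.0185). Of 37 bZIP factors 4 rose (Atf5, Atf4, Cebpg and Nfil3) and 1 fell. Of 313 zinc finger genes named Zfp, Zbtb or Zscan, Zfp367 fell (14.8, 12 and 12.4 FPKM to 3.74, 6.82 and 3.96 FPKM) and Zfp930 rose (5.2, 4.46 and 4.31 FPKM to 8.13, 8.65 and 7.12 FPKM). Of 30 homeobox genes and relatives, Eya1, a transcriptional cofactor of fast fibres, fell from 7.15, 8.45 and 10.1 FPKM to 3.99, 3.61 and 3.49 FPKM (-1.02 ± 0.14). Hoxa4 rose. Among the 8 called genes given with values from Tbl1xr1 to Eya1, Setd8 included, only Setd8 passed in all 6 leave-one-out fits; the others reached an adjusted p of 0.0918 to 0.149 in their least favourable fit, 5 of them without wild-type library 2 and 2 without knockout library 3.

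**Figure D4:**
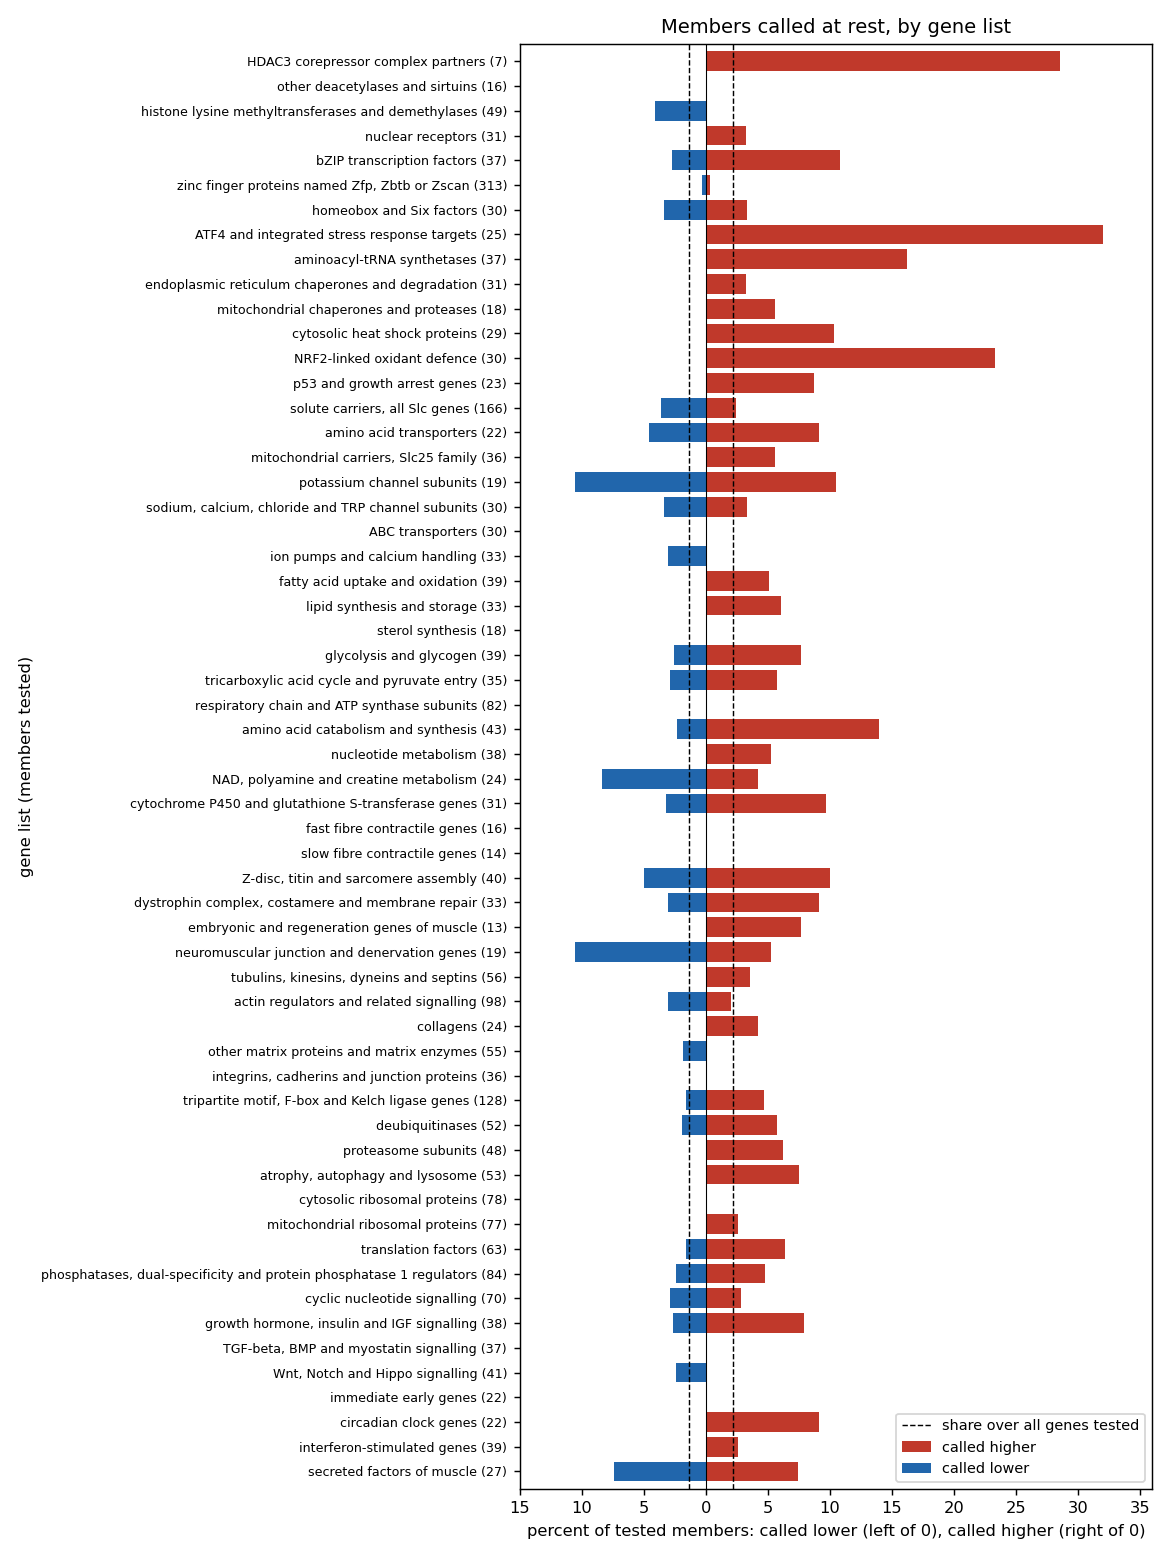
Percent of tested members called higher (right) and lower (left) in 58 overlapping gene lists, with the number of members tested in brackets. Dashed lines mark the shares over all genes tested, 2.22% higher and 1.33% lower; the longest bar is that of the ATF4 and integrated stress response list, with 8 of 25 members higher.

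The integrated stress response had the largest share of members called among the 58 lists, which were chosen with earlier results of these data known. That share was 32.0%, against 3.54% of all genes tested. ATF4, whose translation rises when eIF2 alpha is phosphorylated, switches on amino acid transport and synthesis, one-carbon metabolism and tRNA charging. Of 25 tested targets 8 rose (Mthfd2, Atf5, Slc7a5, Eif4ebp1, Cth, Atf4, Sesn2 and Cebpg), none fell, and the median log2 difference was 0.812 against 5.86e-05 for all genes tested. Against the wild-type mean, the list's median stood at 0.961, 0.646 and 0.727 in knockout libraries 1 to 3 and at -0.0816, -0.0618 and 0.0855 in wild-type libraries 1 to 3. Mthfd2, a mitochondrial enzyme of the folate cycle, read 1.63, 1.44 and 2.35 FPKM and 47.2, 23.8 and 41.7 FPKM (3.74 ± 0.26, adjusted p = 0.0029). Atf5, a factor of the mitochondrial stress response, read 10.3, 8.79 and 12.5 FPKM and 30.7, 27.9 and 28.8 FPKM (1.4 ± 0.13, adjusted p = 0.00689). Slc7a5, the leucine transporter LAT1, went from 0.289, 0.405 and 0.33 FPKM to 3.79, 2.49 and 2.57 FPKM (1.54 ± 0.17, adjusted p = 0.0114), below 1 FPKM in every wild-type library and above 2 FPKM in every knockout library.

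Of 37 aminoacyl-tRNA synthetases, the enzymes that charge tRNA, 6 rose (Gars, Eprs, Nars, Pars2, Aars and Lars) and none fell. This was 16.2% called, against 3.54% of all genes tested, with a median log2 difference of 0.208. Gars, which charges glycine tRNA, read 35.4, 32.9 and 35.3 FPKM and 82.7, 60.2 and 65.3 FPKM (0.97 ± 0.13, adjusted p = 0.0185). Eprs, which charges glutamate and proline tRNA, read 117, 111 and 95.2 FPKM and 233, 197 and 182 FPKM (0.91 ± 0.13, adjusted p = 0.0187). Nars, which charges asparagine tRNA, read 48.5, 39.8 and 44.9 FPKM and 78.5, 72.4 and 71.7 FPKM (0.73 ± 0.10, adjusted p = 0.0189). Pars2 is the mitochondrial enzyme of its kind, and Eprs, Nars, Aars and Lars charge tRNA in the cytosol.

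Chaperones contributed single genes. Called were 3.23% of endoplasmic reticulum genes, 5.56% of mitochondrial and 10.3% of cytosolic ones, against 3.54% of all genes tested. Herpud1, a part of endoplasmic reticulum-associated degradation, was the 1 of 31 endoplasmic reticulum genes to rise, from 67.9, 65.4 and 66 FPKM to 101, 107 and 107 FPKM (0.66 ± 0.08). Hspa9, the mitochondrial Hsp70, was the 1 of 18 mitochondrial chaperones and proteases, at 263, 248 and 197 FPKM and 418, 346 and 377 FPKM (0.69 ± 0.14). Of 29 cytosolic heat shock genes 3 rose, although the list's median was -0.0444. They were Dnajb4 (38.7, 43 and 36.8 FPKM to 89, 65.8 and 95 FPKM), Hspb7, a small heat shock protein of heart and muscle (52.6, 74.5 and 86.1 FPKM to 225, 139 and 333 FPKM), and Dnaja2 (87.3, 78.7 and 77.3 FPKM to 118, 113 and 106 FPKM). The 3 knockout libraries disagreed by more than 2-fold on Hspb7, yet all exceeded wild type. Without wild-type library 2, 2 members of the ATF4 list were called, and no synthetase or chaperone; without knockout library 3 the ATF4 list had 3. Of the genes given with values from Mthfd2 to Dnaja2, Mthfd2 and Atf5 passed in all 6 fits, and the other 9 peaked at an adjusted p of 0.0665 to 0.18.

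Detoxification and oxidant defence genes, many of them targets of the factor NRF2, held called genes in 1 direction. Of 30 tested members 7 rose (Gstm2, Nqo1, Gstm1, Cat, Me1, Srxn1 and Txnrd1), none fell, and the median log2 difference was 0.181. With 23.3% called here and 8.7% of p53 and growth arrest genes, both lists stood above the 3.54% of all genes tested. Gstm2, a glutathione transferase, read 48.6, 32.1 and 33.3 FPKM in wild type and 162, 164 and 134 FPKM in knockout (2.01 ± 0.17, adjusted p = 0.00627). Nqo1, a quinone reductase, read 18.5, 16.6 and 14.5 FPKM and 49.4, 39.8 and 41.9 FPKM (1.35 ± 0.13, adjusted p = 0.00689), and Gstm1 49, 44.4 and 50.3 FPKM and 80.2, 85 and 72.5 FPKM (0.71 ± 0.10, adjusted p = 0.0189). Gstm1 and Gstm2 are close relatives, so reads may have been shared between them, which was not tested. Mgst1, the microsomal glutathione transferase, fell from 54, 73.7 and 59.1 FPKM to 30.4, 23.1 and 31.7 FPKM (-1.11 ± 0.16, adjusted p = 0.0193). Of 23 p53 and growth arrest genes 2 rose, Sesn2 and Cdkn1a, the cell cycle inhibitor p21, at 0.841, 1.12 and 1.56 FPKM and 11.3, 17.8 and 10.9 FPKM (2.7 ± 0.21, adjusted p = 0.00588). Gstm2 and Cdkn1a passed in every leave-one-out fit; without wild-type library 2, Gstm2 was the only 1 of the 7 called, and Nqo1, Gstm1 and Mgst1 reached 0.0569 to 0.0926.

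Amino acid metabolism had 6 of 43 members higher (Oat, Pcca, Cth, Ivd, Dbt and Got1) and 1 lower (Gamt). This was 16.3% called, against 3.54% of all genes tested, with a median log2 difference of 0.243. Oat, which turns ornithine into a precursor of glutamate and proline, read 135, 121 and 117 FPKM and 229.6, 266 and 235 FPKM (0.96 ± 0.10, adjusted p = 0.011). Pcca, a subunit of propionyl-CoA carboxylase in the breakdown of valine and isoleucine, read 10.5, 12.6 and 11.2 FPKM and 18.6, 22.6 and 22.2 FPKM (0.83 ± 0.12). Cth, which makes cysteine, read 2.5, 0.963 and 1.27 FPKM and 6.06, 6.02 and 5.79 FPKM (1.48 ± 0.21). Ivd and Dbt also act in the breakdown of branched-chain amino acids. Gamt, the last enzyme of creatine synthesis, went the other way, from 4.57, 5.5 and 6.4 FPKM to 0.33, 2.09 and 0 FPKM (-2.01 ± 0.39, adjusted p = 0.0388).

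Carbohydrate and lipid lists held fewer called genes. Called were 10.3% of glycolysis and glycogen, 5.13% of lipid-use and 6.06% of lipid synthesis genes, against 3.54% of all genes tested. In glycogen and glycolysis 3 of 39 rose, among them Ppp1r3c, which brings protein phosphatase 1 to glycogen, from 339.9, 202 and 201 FPKM to 594, 683 and 935 FPKM (1.59 ± 0.25, adjusted p = 0.0225). Gbe1, the glycogen branching enzyme, rose from 58.9, 56.9 and 48.3 FPKM to 105, 76 and 109.9 FPKM (0.80 ± 0.16). The third was Pfkfb4, which sets the level of a glycolytic activator (19.4, 17.6 and 19.5 FPKM to 36.6, 49 and 34.8 FPKM), and Fbp2, the muscle fructose bisphosphatase, fell. Wild-type library 1 had the highest Ppp1r3c of its group, at a level still below the lowest knockout library. Echs1 and Acsl6, of fatty acid oxidation and activation, were the 2 of 39 lipid-use genes to rise. Echs1 went from 76.5, 71.2 and 76.6 FPKM to 136, 185 and 133 FPKM (0.99 ± 0.14) and Acsl6 from 9.07, 10.1 and 11.7 FPKM to 17.7, 19.5 and 17 FPKM (0.76 ± 0.12). Dgat2, the last step of triglyceride synthesis, rose from 12.1, 11.2 and 12.7 FPKM to 25.4, 36.8 and 36.8 FPKM (1.37 ± 0.16, adjusted p = 0.0129), 1 of 2 in a list of 33 with the malic enzyme Me1. None of 18 sterol synthesis genes was called.

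Mitochondrial genes were not called as a block. Against 3.54% of all genes tested, 8.57% of cycle and pyruvate genes and 5.56% of mitochondrial carriers were called. For nucleotide genes the share was 5.26%, and for NAD, polyamine and creatine genes 12.5%. Of 35 genes of the tricarboxylic acid cycle and pyruvate entry, 2 rose, Idh2 among them, and Pdk1 fell. Idh2 went from 100, 70.5 and 82.8 FPKM to 165, 201 and 217 FPKM (1.2 ± 0.16, adjusted p = 0.0185). Pdk1, a kinase that restrains pyruvate entry, went from 25.6, 23.5 and 25 FPKM to 15.6, 15.7 and 16.2 FPKM (-0.61 ± 0.09, adjusted p = 0.0196). None of 82 respiratory chain and ATP synthase subunits was called, and their median difference was 0.0388. Slc25a34 (5.66, 3.72 and 3.22 FPKM to 7.7, 11.3 and 9.84 FPKM) and Slc25a5, an adenine nucleotide translocator (32.2, 32.9 and 33.1 FPKM to 42.3, 45.6 and 48.2 FPKM), were the 2 of 36 mitochondrial carriers to rise. In purine metabolism Ppat, which commits precursors to purine synthesis, rose from 14.2, 13.1 and 14.6 FPKM to 24.3, 26.5 and 21.2 FPKM (0.74 ± 0.11). Ampd3, an AMP deaminase, rose from 2.37, 2.39 and 1.45 FPKM to 4.98, 5.23 and 6.26 FPKM (1.09 ± 0.17), and these were 2 of 38. Around polyamines, Oaz2, an antizyme, rose (89.3, 81.3 and 83.3 FPKM to 111, 136 and 130.2 FPKM) and Smox, spermine oxidase, fell (67.8, 95.6 and 101 FPKM to 32.9, 50.6 and 42.3 FPKM). Of the 15 metabolic genes described, Gamt, Fbp2, Me1 and the carriers aside, none passed in all 6 leave-one-out fits: the highest adjusted p ranged from 0.0806 to 0.156, in 13 of them without wild-type library 2 and in 2 without knockout library 3. In the authors' deposited table Ppat had a q of 0.0516.

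Contractile genes as such did not pass limma's test, and its calls lay in the scaffolding around them. None of 16 fast and 14 slow fibre genes was called, with medians of 0.0181 and 0.228. The fast troponin T, Tnnt3, the most abundant of all, read 18473, 16294 and 15616 FPKM and 16492, 17834 and 17202 FPKM, and the groups overlapped. By the authors' q, 4 slow fibre genes were higher and 1 lower, and 0 fast ones were higher and 1 lower. Mybpc1, of the slow list, read 750, 818 and 570 FPKM and 1011, 1049 and 1215 FPKM without overlap. Its log2 difference was 0.63 ± 0.16 (limma adjusted p = 0.0822, authors' q 0.00927). Of 40 Z-disc, titin and sarcomere assembly genes 4 rose (Xirp2, Pdlim5, Mybph and Myom3) and 2 fell (Smyd2 and Unc45b, a myosin chaperone). Xirp2, an actin-binding repeat protein, read 643, 655 and 557 FPKM and 992, 881 and 946 FPKM (0.61 ± 0.11), and its q in the authors' deposited table was 0.0514. Pdlim5, a Z-disc adaptor, read 344, 311 and 231 FPKM and 473, 541 and 574 FPKM (0.85 ± 0.16).

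At the membrane skeleton 3 of 33 genes rose and 1 fell, 12.1% against 3.54% of all genes tested. In the lists that follow, 15.8% of neuromuscular junction genes were called. Microtubule and septin genes (3.57%) and actin regulators (5.1%) lay near the share of all genes. Des, the intermediate filament desmin, read 423, 447 and 626 FPKM and 869, 915 and 1095 FPKM (0.96 ± 0.17, adjusted p = 0.0327). Dtna, alpha-dystrobrevin, read 60.8, 54.4 and 52.5 FPKM and 87.2, 88.8 and 84.9 FPKM (0.63 ± 0.09). Sgcd, delta-sarcoglycan, was the third. Cav3, the caveolin of muscle, fell from 28.3, 34 and 34.2 FPKM to 18.1, 19 and 18.5 FPKM (-0.76 ± 0.11, adjusted p = 0.0186). At the neuromuscular junction Musk, the receptor kinase that organises it, fell from 6.24, 6.1 and 7.17 FPKM to 3.02, 2.84 and 4.01 FPKM (-0.81 ± 0.14), as did the acetylcholine receptor subunit Chrnb1 (14, 15.4 and 11 FPKM to 7.33, 8.39 and 7.19 FPKM). The adult subunit Chrne rose (3.92, 5.55 and 4.29 FPKM to 9.96, 7.9 and 7.7 FPKM), so that 3 of 19 were called. Tubb4b, a beta-tubulin, rose with Tuba8 (118, 110.4 and 119.7 FPKM to 194, 172 and 207 FPKM), 2 of 56 microtubule and septin genes. Of 98 actin regulators and related signalling genes 2 rose, Pak1 and Arhgap10 (21.2, 21.1 and 19.7 FPKM to 36.7, 34.4 and 34.5 FPKM), and 3 fell, among them Actr3b. None of the 10 genes given with values from Xirp2 to Arhgap10 passed in all 6 fits, and their highest adjusted p was 0.0855 to 0.153, reached in 7 of them without wild-type library 2.

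Transporters and channels moved in both directions. Of 166 Slc genes 4 rose and 6 fell (6.02% called, against 3.54% of all genes tested), and the median was -0.0369. Slc43a2, like Slc7a5 a carrier of large neutral amino acids, rose from 2.97, 1.89 and 2.11 FPKM to 7.13, 6.49 and 8.33 FPKM (1.33 ± 0.16, adjusted p = 0.0137). Slc38a4, another amino acid carrier, fell from 24.1, 33.5 and 26.9 FPKM to 11.3, 14 and 9.001 FPKM (-1.24 ± 0.18, adjusted p = 0.0193). Slc47a1, an exporter of organic cations, fell from 19.7, 28.3 and 19.8 FPKM to 6.66, 4.26 and 7.99 FPKM (-1.71 ± 0.23, adjusted p = 0.0185). In each of these the extreme library of 1 group still lay outside the other group. The others that fell were Slc15a5, Slc2a3, Slc12a2 and Slc15a4.

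Of 19 potassium channel genes 2 rose and 2 fell, 21.1% against 3.54% of all genes tested. Among pump and calcium handling genes the share was 3.03%. Kcnc4, a fast-opening channel, went from 20.6, 21.9 and 28.2 FPKM to 36.2, 43 and 37.1 FPKM (0.70 ± 0.14). Kcng4, a modifying subunit, went from 14.6, 16.5 and 14.4 FPKM to 2.28, 6.64 and 3.48 FPKM (-1.74 ± 0.28), with knockout library 2 nearest to wild type. Itpr1, a calcium release channel of the endoplasmic reticulum, rose from 5.8, 5.81 and 5.52 FPKM to 11.4, 10.8 and 10.2 FPKM (0.82 ± 0.10, adjusted p = 0.0152). Stac3, which couples excitation to contraction, fell from 67.8, 73.4 and 66.3 FPKM to 44.3, 49.7 and 47.7 FPKM (-0.54 ± 0.09) and was the 1 of 33 pump and calcium handling genes called. None of 30 ABC transporters was called. Without wild-type library 2 none of the 7 transporters and channels given with values, and neither of the mitochondrial carriers, was called, and the highest adjusted p was 0.0836 to 0.168.

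In 4 lists of protein turnover the share of called genes was above the 3.54% of all genes tested. The shares were 6.25% of the tripartite motif, F-box and Kelch ligases, 7.69% of deubiquitinases, 6.25% of genes with proteasome names and 7.55% of atrophy, autophagy and lysosome genes, and no gene of these 4 lists was called without wild-type library 2. Of 128 tripartite motif, F-box and Kelch ligase genes 6 rose and 2 fell. Fbxo40, a muscle ligase that acts on the insulin substrate IRS1, read 99.5, 106 and 100.3 FPKM and 172, 153 and 190.3 FPKM (0.74 ± 0.11). Asb8 read 45.9, 41.9 and 42.8 FPKM and 73.9, 62.2 and 75 FPKM (0.68 ± 0.11), and Fbxo9 read 25.1, 23.2 and 23.2 FPKM and 33.3, 32.8 and 34.8 FPKM (0.48 ± 0.09). Of 52 deubiquitinases 3 rose and 1 fell. The former were Usp46, which removes ubiquitin from histones and receptors (6.33, 5.01 and 5.12 FPKM to 13.3, 12.6 and 13.4 FPKM), Usp18, which removes the ubiquitin-like ISG15 (1.33, 0.614 and 1.2 FPKM to 4.79, 5.27 and 3.94 FPKM), and Usp13 (86.7, 88 and 87.4 FPKM to 139.7, 119.8 and 146 FPKM). Usp18 is also interferon-induced, yet it was the only 1 of 39 interferon-stimulated genes called, in a list whose median was -0.305. Ctsl, the lysosomal protease cathepsin L, rose from 37.2, 29.5 and 25.7 FPKM to 76.1, 77.2 and 61.6 FPKM (1.2 ± 0.16, adjusted p = 0.0185). With Eif4ebp1, Fbxo40 and Lamp1 it made up the 4 of 53 atrophy, autophagy and lysosome genes that were called.

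Of 48 genes with proteasome names 3 rose, and they were a mixed set. Psma6 is a core subunit (111, 93 and 87.8 FPKM to 147, 139 and 140.0 FPKM), Psmg4 an assembly chaperone (9.08, 9.36 and 9.73 FPKM to 13.6, 19.1 and 16.2 FPKM), and Psmc3ip, despite its name, a recombination protein (1.47, 1.76 and 1.44 FPKM to 3.49, 5.04 and 4.04 FPKM). In the authors' deposited table Psmg4 and Psmc3ip had a q of 0.106 and 0.195. None of 78 cytosolic ribosomal protein genes was called (median 0.113), and 2 of 77 mitochondrial ones rose, Mrps18b (32.8, 36 and 38.4 FPKM to 69.4, 50.5 and 62.9 FPKM) and Mrpl30 (144, 142 and 150.1 FPKM to 192, 192 and 191 FPKM, q in the authors' deposited table of 0.0744). Of 63 translation factors and their binding proteins 4 rose, among them Eif4ebp1, a brake on cap-dependent translation (23.4, 24.2 and 32.7 FPKM to 57.4, 55 and 53.5 FPKM), and Eif2s2 (56.9, 52.5 and 59.8 FPKM to 102, 92 and 78.8 FPKM), and 1, Eif4e3, fell. Called were 2.6% of mitochondrial ribosomal protein genes and 7.94% of translation factors, against 3.54% of all genes tested. None of the 14 turnover and translation genes given with values was called without wild-type library 2, where the adjusted p was 0.0665 to 0.196.

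Calls in 3 signalling lists went in both directions. The share called was 5.71% of cyclic nucleotide genes and 7.14% of phosphatases and their regulators. It was 10.5% of growth hormone, insulin and IGF genes, against 3.54% of all genes tested. Gng2, a G protein gamma subunit, rose from 3.76, 1.9 and 1.93 FPKM to 12.6, 13.6 and 9.43 FPKM (1.89 ± 0.23, adjusted p = 0.0135). Pde4a, which breaks down cyclic AMP, fell from 6.18, 6.37 and 8.12 FPKM to 1.71, 2.37 and 2.88 FPKM (-1.26 ± 0.17, adjusted p = 0.0185), with 2 higher and 2 lower of 70 cyclic nucleotide genes. The second to rise was Pde4dip, a scaffold (386, 383 and 389 FPKM to 536, 627 and 592 FPKM). Ppp1r14b, an inhibitor of protein phosphatase 1, fell from 34.7, 39.9 and 58.9 FPKM to 13.6, 10.6 and 18.1 FPKM (-1.59 ± 0.24, adjusted p = 0.021), as did the phosphatase Dusp26 (30.05, 32.5 and 42 FPKM to 16.6, 19.6 and 16.6 FPKM). Ppm1b rose (78.7, 81.7 and 78.7 FPKM to 125, 114 and 132 FPKM), and of 84 phosphatases and regulators 4 rose and 2 fell in all. Of 38 growth hormone, insulin and IGF genes, Grb14, an inhibitor of the insulin receptor, fell from 14.2, 16.1 and 10.9 FPKM to 2.89, 5.57 and 6.06 FPKM (-1.37 ± 0.25). Deptor, an inhibitor of mTOR, rose from 10.1, 9.67 and 7.69 FPKM to 17.1, 22.4 and 14.3 FPKM (0.88 ± 0.18), and Eif4ebp1 and Tbc1d4 rose too.

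Clock genes had 2 of 22 members higher, Arntl, the clock activator BMAL1 (4.36, 6.17 and 5.08 FPKM to 13.7, 10.6 and 11 FPKM, log2 difference 1.05 ± 0.15), and Nfil3, a repressor under clock control (13.4, 16.3 and 12.9 FPKM to 26.1, 22.3 and 33.7 FPKM). Called were 9.09% of clock genes and 14.8% of secreted factors, against 3.54% of all genes tested. Among 27 secreted factors Hbegf, a growth factor of the EGF family (7.79, 8.05 and 7.78 FPKM to 15.9, 19.1 and 22.8 FPKM), and Fgfbp1, which frees FGFs from the matrix (4.2, 2.22 and 0.949 FPKM to 14.9, 20.02 and 9.82 FPKM), rose, and Dkk3 and Vegfb fell. None of 37 TGF-beta family genes and none of 22 immediate early genes was called by limma. The immediate early genes had a median of 0.216, -0.0889 and 0.868 in knockout libraries 1 to 3 against the wild-type mean, so the knockout libraries differed among themselves. The authors' deposited table called 9 of the 22 higher. Without wild-type library 2 none of the 12 signalling genes given with values in the last paragraphs was called; the highest adjusted p over the leave-one-out fits was 0.0814 to 0.145.

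Of the matrix genes 1 fell and 1 rose, which was 4.17% of collagens and 1.82% of other matrix genes, against 3.54% of all genes tested. Only 3 of 24 collagens and 16 of 55 other matrix genes were above 0, with medians of -0.27 and -0.221. Thbs4, a thrombospondin of tendon and muscle attachment, fell from 31.8, 35.9 and 32.5 FPKM to 21.1, 16.1 and 17.1 FPKM (-0.86 ± 0.12, adjusted p = 0.0189, up to 0.0926 without 1 library), and Col9a1 rose. Against the wild-type mean the collagen median was -0.128, -0.0732 and 0.155 in wild-type libraries 1 to 3 and -0.147, -0.11 and -0.412 in knockout libraries 1 to 3. For the other matrix genes it was 0.106, -0.0873 and -0.0499 in wild type and 0.0106, -0.112 and -0.394 in knockout. Knockout library 3 was thus the lowest in both lists, while knockout libraries 1 and 2 lay within the range of the wild-type libraries or just below it. Beside these lists, the 9 fibroblast markers, of which none was called, summed to 588.5 to 831.5 FPKM in wild type and 469.5 to 666.9 FPKM in knockout. The 6 tendon markers, with Thbs4 among them, summed to 58.0 to 75.2 FPKM and 31.5 to 45.1 FPKM. Most of that sum was Thbs4 and Fmod, the only tendon markers whose groups did not overlap. Scx leaned the other way, at 0.862, 0.415 and 2.7 FPKM in wild type and 3.13, 2.07 and 2.3 FPKM in knockout. Mkx was under 1 FPKM in every library. The part of either cell type in the matrix values was not tested.

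A few genes crossed 1 FPKM between genotypes. Those whose mean was under 1 FPKM in wild type and at least 2 FPKM in knockout were led by Srrm4os, an opposite-strand RNA at the locus of the neuronal splicing factor Srrm4, at 0.152, 0.304 and 0.247 FPKM and 13.4, 8.93 and 8.995 FPKM (3.19 ± 0.18, adjusted p = 0.000899). Strand was not given, so reads of Srrm4os and of Srrm4 cannot be told apart. Hpn, a membrane serine protease (0.865, 0.5 and 1.42 FPKM to 2.77, 3.24 and 3.39 FPKM), Hoxa4 (0.846, 0.582 and 0.947 FPKM to 3.11, 2.91 and 2.51 FPKM), the mitochondrial nucleotide kinase Nme4 (0, 0.589 and 0.719 FPKM to 2.97, 2.06 and 2.18 FPKM) and the unnamed locus Gm12185 (0.438, 0.377 and 0.583 FPKM to 2.28, 4.03 and 1.58 FPKM) rose likewise, with Slc7a5, Tlcd2 and Rnaset2a. In the authors' deposited table Hoxa4 had a q of 0.0565, Nme4 of 0.258 and Rnaset2a of 0.498. Rnaset2a (0.19, 0.0105 and 0.0105 FPKM to 2.57, 3.06 and 3.15 FPKM) has a near-identical copy, Rnaset2b (0.795, 0.718 and 1.95 FPKM and 1.51, 2.63 and 0.885 FPKM, overlapping), so its value is uncertain.

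In the opposite direction Dkk3, a secreted Wnt modulator, fell from 4.95, 2.86 and 4.9995 FPKM to 0.689, 1.09 and 0.3 FPKM (-1.64 ± 0.24, adjusted p = 0.0198). Kcnq5, a potassium channel, fell from 3.58, 4.08 and 3.55 FPKM to 0.394, 0.875 and 1.19 FPKM (-1.4 ± 0.19, adjusted p = 0.0185). Neto2, an auxiliary subunit of glutamate receptors, fell from 1.9, 3.27 and 3.64 FPKM to 0.797, 0.422 and 0.781 FPKM (-1.22 ± 0.21, adjusted p = 0.0295). Gamt, Mfap3l and Cacna2d4, described above, Snora34, described below, and the pseudogene Hmga2-ps1 (6.01, 3.83 and 3.6 FPKM to 0.928, 0.442 and 1.45 FPKM, q in the authors' deposited table of 0.117) belong here as well. Srrm4os, Tlcd2, Rnaset2a and Mfap3l passed in every leave-one-out fit, and the other 10, Cacna2d4 and Snora34 aside, had a highest adjusted p of 0.0665 to 0.153, none of them passing without wild-type library 2.

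Some of the most abundant called genes were RNAs and proteins of general function. Malat1, a nuclear long noncoding RNA, read 569, 692 and 530.4 FPKM in wild type and 1236, 930.1 and 1144 FPKM in knockout (0.88 ± 0.15, adjusted p = 0.0279). Vdac3, a porin of the outer mitochondrial membrane, read 532, 487 and 456 FPKM and 774, 766 and 732 FPKM (0.63 ± 0.10, adjusted p = 0.0241). Cst3, the protease inhibitor cystatin C, read 221, 231 and 302 FPKM and 461, 514 and 399.8 FPKM (0.87 ± 0.15, adjusted p = 0.0297). Together with Ppp1r3c, Des, Xirp2, Pdlim5 and 2 small RNA genes these were among the called genes with the largest FPKM differences. Malat1 was 1 of 12 long noncoding RNAs that rose, with 3 that fell, among 315 tested. Of all genes tested 2.22% rose and 1.33% fell. Without wild-type library 2, or without either knockout library 1 or 3, none of the 7 abundant genes was called, and the highest adjusted p was 0.102 to 0.145.

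Transcripts from imprinted loci fell and rose. Snrpn, which encodes a spliceosomal protein and is expressed from the paternal allele, fell from 8.2, 10.9 and 8.14 FPKM to 2.64, 2.45 and 3.53 FPKM (-1.38 ± 0.16, adjusted p = 0.0129). Peg3os, on the opposite strand to the paternally expressed Peg3, fell from 7.08, 6.17 and 6.93 FPKM to 2.96, 2.64 and 2.53 FPKM (-1.06 ± 0.12, adjusted p = 0.0114, q in the authors' deposited table of 0.127). Peg3 itself read 4.44, 3.46 and 3.45 FPKM and 2.06, 2.26 and 1.95 FPKM (adjusted p = 0.0548), and reads of the pair cannot be told apart without strand. H19, a maternally expressed RNA of developing muscle, rose from 94.9, 75.3 and 76.4 FPKM to 182, 128 and 189 FPKM (1.00 ± 0.17, adjusted p = 0.0282). The highest adjusted p of Snrpn, Peg3os and H19 over the leave-one-out fits was 0.0665 to 0.124, without wild-type library 2 each time. These genes were set side by side after their values were seen.

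Small RNA genes are shorter than a usual sequencing fragment, and FPKM divides by that length. Of 63 such members 40 were listed at 0 in at least 1 library, against 119 of the 10771 others, and 2 were called. Snora34, a small nucleolar RNA of 118 bases in RefSeq, stood at 755, 606 and 493 FPKM in wild type. It was listed at 0 in all 3 knockout libraries, so no fold is given (adjusted p = 3.91e-07, q in the authors' deposited table of 0.503). After running it was listed at 0, 711 and 350.0 FPKM in wild type and 279.5, 0 and 0 FPKM in knockout, and the groups overlapped. Mir703 read 3123, 2818 and 3059 FPKM and 1182, 938 and 1158 FPKM (-1.46 ± 0.13, adjusted p = 0.00627, q in the authors' deposited table of 0.335); after running it swung from 0 to 1469.6 FPKM in wild type and from 0 to 2869 FPKM in knockout. These FPKM come from the annotated hairpin gene of 109 bases and do not measure the mature microRNA, whose RefSeq sequence is given for identity with its seed, bases 2 to 8, in capitals (chr5:98475616-98475636, minus strand, GRCm38.p6).
miR-703: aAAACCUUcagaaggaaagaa
The widest spread within a genotype also lay in small RNA genes. Mir6992, for example, was listed at 0, 939.2 and 0 FPKM in wild type and at 0 in all knockout libraries, and was not called.

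Of 573 predicted or unnamed loci 16 were called, against 384 (3.54%) of all 10834 genes tested. A330074K22Rik rose from 1.19, 1.34 and 1.44 FPKM to 5.6, 4.95 and 7.56 FPKM (1.58 ± 0.16, adjusted p = 0.0085). Gm5532 rose from 4.96, 2.74 and 2.13 FPKM to 18.3, 12.3 and 25.8 FPKM (2.21 ± 0.31, adjusted p = 0.0186), and 3110057O12Rik from 6.9, 3.86 and 3.69 FPKM to 11.6, 16.3 and 17.8 FPKM (1.5 ± 0.24, adjusted p = 0.0233). Gm5420 rose as well (1.2, 1.44 and 1.25 FPKM to 3.38, 2.78 and 3.79 FPKM). Gm3646 read 1.09, 2.63 and 2.14 FPKM in wild type and was listed at 0 in every knockout library, with a q of 0.135 in the authors' deposited table. All 5 lost their call without wild-type library 2 (adjusted p 0.0665 to 0.107).

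The same genes were then read in the libraries taken after running, which share no library with those at rest. Of the 240 genes that rose at rest, 235 (97.9%) were again higher in knockout, and of the 144 that fell, 140 (97.2%) were again lower; among genes not called at rest, 65.9% kept their direction. Of the genes called at rest, 53 that rose (22.1%) and 57 that fell (39.6%) passed the test in the same direction after running, against 1.02% of genes not called at rest; in all 220 of 10819 genes (2.03%) were called after running. The median log2 difference of the 240 was 0.782 at rest and 0.528 after running, and that of the 144 was -0.854 and -0.765 (the values at rest chose the genes). For Gstm2 the libraries after running read 38.8, 39.8 and 37.4 FPKM in wild type and 117, 171 and 143 FPKM in knockout (log2 difference 1.85 ± 0.14), and for Cd55 27.9, 24 and 27.7 FPKM and 9.08, 9.1 and 8.25 FPKM (-1.49 ± 0.11). Setd8 read 39.6, 38.5 and 39 FPKM and 17.5, 16.3 and 16.9 FPKM (-1.16 ± 0.09), with no overlap.

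No gene passed limma's interaction test, over the 12 libraries, for a knockout difference that changed with running (0 of 10819, 0%). An unadjusted p under 0.05 was found for 540 (4.99%). Among them were 41 (17.1%) of the genes that rose at rest and 13 (9.03%) of those that fell. Without resting wild-type library 3, 1 gene passed. Genes picked for a large difference at rest tend to show a smaller one in other libraries, and the interaction subtracts that same picked difference. For such genes its unadjusted p-values are therefore biased low and do not show an effect of running. Some genes called at rest had a smaller difference after running. The value of Rnaset2a is also uncertain because of its near-identical copy. Rnaset2a, called at rest in every leave-one-out fit, read 4.7, 2.998 and 5.02 FPKM in wild type and 4.95, 6.88 and 3.9 FPKM in knockout after running, and the groups overlapped; its log2 difference was 0.25 ± 0.23, against 1.88 ± 0.15 at rest (interaction unadjusted p = 8.43e-05, adjusted 0.912). Ppp1r3c read 840.4, 961 and 1426 FPKM and 1064, 1207 and 1726 FPKM, again overlapping, with 0.31 ± 0.25 after running and 1.59 ± 0.25 at rest (interaction unadjusted p = 0.00614, adjusted 0.915). Among the 9 called genes with the opposite sign after running was Hbegf, which read 58.1, 11.9 and 16.7 FPKM in wild type and 29, 23.8 and 15.7 FPKM in knockout, a log2 difference of -0.04 ± 0.54 (interaction unadjusted p = 0.0712). Wild-type library 1 after running was far above its group in Hbegf. The others included 2310010J17Rik, Hddc3, Klhdc1 and Vps53, higher at rest, and Cyb561d2, Gm11974 and Saysd1, lower at rest.

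**Figure D5:**
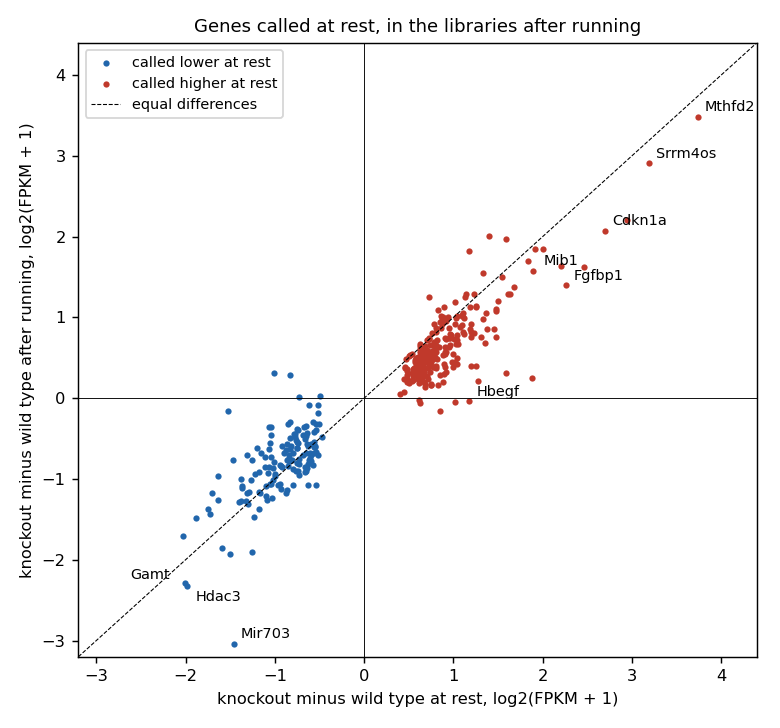
Knockout minus wild type on the log2(FPKM + 1) scale after running against the same difference at rest, for the genes called at rest other than Snora34. Of the 240 genes called higher at rest, 235 were above 0 after running, and of the 144 called lower, Snora34 counted, 140 were below 0.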

How the data were processed

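RNA-seq libraries of quadriceps, 3 per genotype at rest and 3 after running, were read from 2 tables of FPKM that the authors deposited, with the condition taken from each table's name. The submitters' processing notes name the build mm9 and the tools HOMER, Cuffdiff, TopHat2 and Bowtie; their roles, versions, annotation, strand and settings are not given in the sources used here. The p-values and q-values in the authors' deposited table come from their own comparison; 9 called genes were not tested there. No counts were used and depth is unknown, so error rests on the spread between libraries. GRO-seq was not analysed here.

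Genes with a mean of 1 FPKM or more in either genotype were taken as log2(FPKM + 1) and fitted with limma (3.58.1, R 4.3.3), letting the variance follow the mean. Two-sided p-values were adjusted by Benjamini-Hochberg over all 10834 genes, with a threshold of 0.05. This scale understates the change of low genes. The difference after running was fitted in the same way on the libraries taken after running alone. Only the interaction used the 12 libraries together. Both matched genes by name, leaving out 15 genes whose names a spreadsheet had turned into dates. On simulated data the fit recovered 71% of genes changed by 1 and 96% of genes changed by 2 on the log2 scale. It also called 14 unchanged genes. Changes were placed only in genes with a mean over 2 on that scale, and no library was made to stand apart. The simulation therefore does not cover low genes or a deviating library. 

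Members, the 58 lists and the markers were chosen with earlier results of these data known; some lists were drawn by gene name and hold genes that only share it. The genes named are Hdac3, the 15 called genes of smallest p in each direction, the 10 with the largest FPKM difference, up to 8 per direction that crossed from under 1 to 2 FPKM or more, up to 3 called members per list (or its most abundant member), the 5 of widest spread per genotype and the 5 called unnamed loci of smallest p; other names, such as the remaining called members of a list, were given after their values were seen. Some genes that this rule names are not reported here. Symbols and promoters came from RefSeq tables of GRCm38.p6, which is not the authors' build, so no other coordinates are given. Other pseudocounts, filters, normalizations, moderation, library weights, a replicate block and leaving out each library were tried.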

Additional observations from a re-analysis of the deposited data

How the results depend on the processing

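Counts of genes called at rest (main: 384, 240 higher and 144 lower) stayed within 1.5 times under the other pseudocounts, the stricter filters, no trend, robust moderation, median centring and quantile normalization, from 297 to 436 in all, and without small RNA genes (436, an alternative chosen after seeing the data). They moved further under 4 settings, and the cause was not tested in any of them except where fewer or more genes were tested. Without a filter, over 16931 genes, 247 were called (152 higher, 95 lower). With library weights 1472 were called (821 and 651). The authors' q gave 998 (543 and 455). With the replicate number as a block 36 were called (23 and 13), 35 of them among the 384. Same-numbered libraries of the 2 genotypes deviated together only weakly (correlations 0.0362, 0.0477 and 0.0484, against -0.0863 to 0.0362 for different numbers). Each number's pair was the best match except that knockout library 1 matched wild-type libraries 1 and 2 equally. The labels do not say what the number stands for, and whether same-numbered libraries share an origin was not tested. Leaving out 1 library gave 19 to 208 genes in all, 13 to 131 higher and 6 to 77 lower, with fewer samples in each fit. The count of genes whose difference changed with running was 0 to 1 over the same fits, and 0 with the other pseudocount and with the block.

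Signs reversed only in genes that were not called. Called genes could not reverse when a library was left out, since their groups did not overlap. With library weights Mir719 had a log2 difference of 2.59, and by the authors' means Snora44 had 0.195. Leaving out 1 library at a time, Snora64 ranged from -3.13 to 2.80, Snora44 from -4.20 to 1.14, Snora31 from -2.99 to 3.51 and Tnnt3 from -0.0152 to 0.106. No genotype difference here has a counting error, because the files give no reads.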

Other observations

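Small RNA genes with the widest spread within a genotype, all uncalled, were listed as follows. Mir686 read 2697.9, 2029 and 8392 FPKM in wild-type libraries 1 to 3 and 0, 360.1 and 4268 FPKM in knockout libraries 1 to 3. Mir719 read 283, 0 and 994 FPKM against 0, 0 and 816 FPKM. Snora44 read 1670.3, 669.8 and 273 FPKM against 0, 1338 and 1652 FPKM. Snora64 was listed above 0 only in wild-type library 2 (669.8 FPKM) and knockout library 2 (334.6 FPKM), and Snora31 only in wild-type library 1 (499.7 FPKM) and knockout library 3 (1483 FPKM). Mir6516 and Snora2b were above 0 in 1 wild-type library each (801 and 499.7 FPKM) and Mir3473e in 1 knockout library (988 FPKM). In all of these the genotypes overlapped or shared libraries at 0.

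Markers of other cells, where not described above, had these sums. Endothelial markers summed to 106 to 119 FPKM in wild type and 108.5 to 121 FPKM in knockout, smooth muscle and pericyte markers to 178 to 243 and 206 to 219 FPKM, and Schwann cell and nerve markers to 24.7 to 30.1 and 24.3 to 25.6 FPKM. Satellite cell markers summed to 12.9 to 20.5 FPKM and 10.5 to 13.2 FPKM, with Pax7 and Calcr under 1 FPKM in every library. Myod1, at 4.43 to 11.1 and 6.32 to 7.57 FPKM, made up much of that sum. In Pax7, Myf5, Cdh15 and Chodl every knockout library was below every wild-type library, while in Myod1 and Calcr the groups overlapped. Of all genes tested, 26.3% did not overlap in one direction or the other. Pax7 read 0.156, 0.141 and 0.383 FPKM against 0.0592, 0.094 and 0 FPKM, and Myf5 1.27, 1.02 and 0.833 against 0.515, 0.306 and 0.378 FPKM. Cdh15 read 2.24, 3.49 and 4.62 FPKM against 1.65, 2.18 and 1.34 FPKM, and Chodl 5.42, 3.55 and 3.49 against 2.70, 2.89 and 2.34 FPKM. Adipocyte markers summed to 326 to 485 and 327 to 440.3 FPKM, and erythroid markers to 60.9 to 277 and 63.3 to 232 FPKM. Macrophage markers summed to 76.3, 79.3 and 74.3 FPKM in wild-type libraries 1 to 3 and 83.6, 49.9 and 58.8 FPKM in knockout libraries 1 to 3, so that knockout libraries 2 and 3 were below every wild-type library and knockout library 1 above. No marker in these 7 lists was called.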
